A study of Danio rerio with 48 samples.

Results

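Hair cells are the mechanosensory cells of the inner ear and of the lateral line, and this report describes 30 genes that hair cells use, as measured in whole zebrafish larvae 2 days after the lateral line was stripped of hair cells by copper. The genes were taken from a list of 35 symbols by role, namely hair cell fate, bundle, mechanotransduction, synapse and soluble calcium-binding proteins, and were required to have a mean count of 10 or more over 33 RNA-Seq libraries. The files listed 34707 Ensembl gene identifiers, of which 23577 reached that mean. Of the 35 symbols, 30 were used, and all 30 reached it. No identifier was matched to *tomt*, and for *ush1ga*, *whrna*, *loxhd1b* and *capgb* the gene table gave 1 name to 2 paralogues that could not be told apart. The *tmc2a* and *tmc2b* genes likewise carried 1 name, but both were on the list, so both were kept and are called here by their identifiers, ENSDARG00000030311 and ENSDARG00000033104. Which of them is *tmc2b* was not known.

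A hair cell bears a bundle of actin-filled stereocilia joined by tip links of cadherin 23 and protocadherin 15. Deflection of the bundle pulls on a channel complex that includes TMC proteins, TMIE, LHFPL5 and CIB2, calcium enters at ribbon synapses through Cav1.3 channels, and otoferlin couples that calcium to the release of glutamate. In the zebrafish lateral line, hair cells lie in small organs of the skin called neuromasts, die within hours of copper exposure and are replaced from the support cells around them. The proneural factor Atoh1a is required for hair cells to form, and Pou4f3 and Gfi1 factors act later in their differentiation and survival.

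Each mutant group consisted of pooled larvae at 7 days post-fertilization (dpf), homozygous for a mutation in a gene of the SMN complex, in the TAB-5 background. The study's legend gives the alleles as *smn1* fh229, *gemin2* hg108, *gemin3* hg105, *gemin4* hg109, *gemin5* hg80, *gemin6* hg110 and *gemin7* hg111. At 5 dpf all larvae, the wild types included, had spent 2 h in 10 µM copper sulfate. Their tail fins were clipped for genotyping afterwards, when the bodies were stored at 7 dpf. No library came from larvae without copper, so the comparisons set mutants against wild types and not larvae after copper against larvae before it. The *smn1*, *gemin3* and *gemin5* mutants, named the regeneration mutants in the study, were each compared with 3 wild-type libraries from the same family. The other 4, named non-regeneration mutants, shared a control of 3 wild-type libraries, 1 from each of the *gemin4*, *gemin6* and *gemin7* families, so *gemin2* mutants had no sibling library. The larvae of a family came from a single pair of heterozygous parents per the methods, and nothing states that replicates were separate crosses. The p-values thus measure the spread between these libraries only, and in the shared control that spread includes any difference between its families. RNA was taken from the body, which holds inner ear hair cells as well as those of the lateral line, and in such RNA fewer hair cells and less RNA per hair cell cannot be told apart. How much of each gene's RNA came from hair cells, and how much from other tissues, was not measured.

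Library totals ranged from 30045993 to 88871247 counts with a median of 36496510, and the *gemin3* mutants and their siblings were the deepest, at 61452820 to 88871247, from another instrument and with longer reads. The mRNA of the mutated gene lay below all 3 controls in all 3 libraries of *gemin2*, *gemin3*, *gemin5* and *gemin7* mutants, at 26.3% to 61.6% of the control mean in TPM (a level scaled for transcript length and library size). In *smn1*, *gemin4* and *gemin6* mutants it overlapped the control, at 96.6%, 88.7% and 100.4%, so the level of that mRNA did not check those labels. Wild-type library 3 of the *gemin3* family stood apart in many of the hair cell genes, and the main *gemin3*, mean and within-group results for these genes are given with and without it.

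In wild-type larvae the hair cell genes spanned 3 orders of magnitude in TPM, with the calcium-binding proteins on top. Over the 12 wild-type libraries, 7 of the 30 genes had a median above 10 TPM, 17 lay between 1 and 10 and 6 lay below 1. The highest was *pvalb8*, a parvalbumin that buffers calcium, with a median of 232.7 TPM and a range from 107 to 632. Next came the S100 family genes *s100t*, with a median of 119 TPM (90.2 to 264), and *s100s*, with 40.4 TPM (30.1 to 52.4). Of the otoferlin genes, *otofa* had a median of 13.3 TPM and *otofb* of 9.60 TPM. Genes of the bundle and of the transduction complex were mostly low, and the lowest were *grxcr1a* (0.21 TPM), *clrn2* (0.595 TPM), *cdh23* (0.625 TPM) and *lhfpl5b* (0.685 TPM). Several neighbours in this order, such as *otofa* with *ush1c* at 13.3 TPM each, did not differ beyond their spread.

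**Figure D1:**
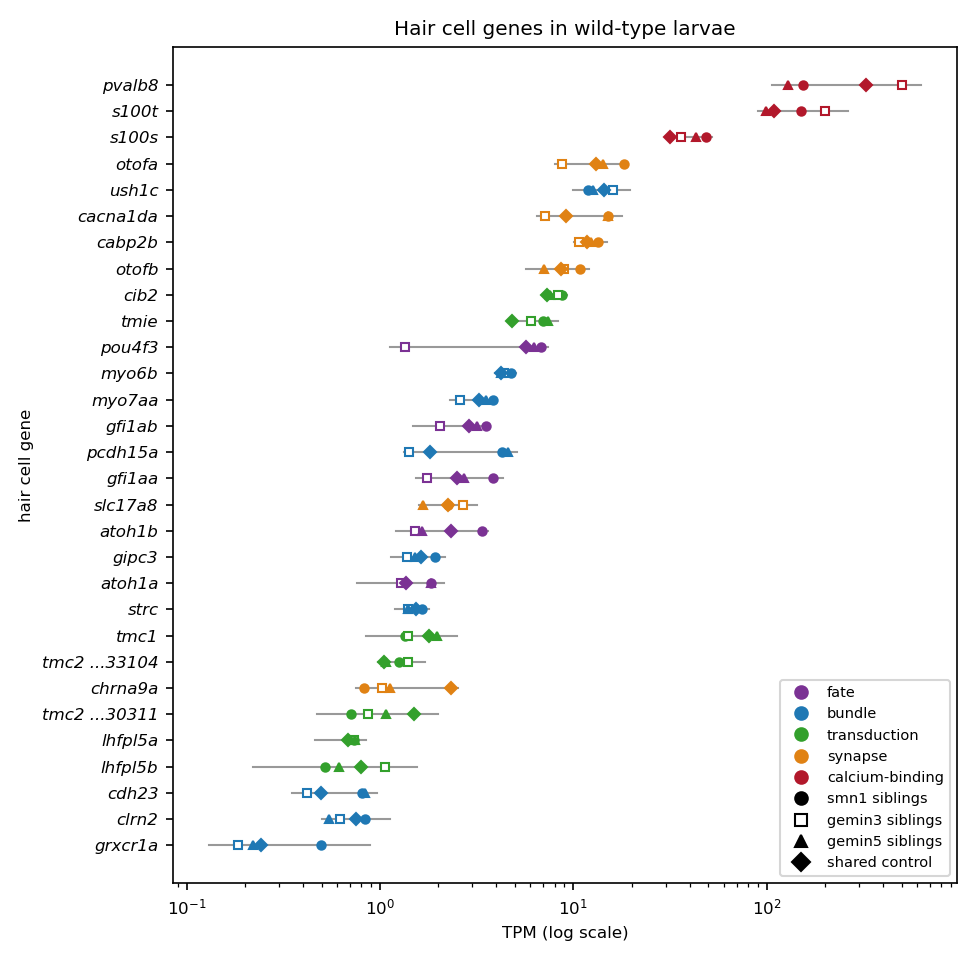
Level of the 30 hair cell genes in wild-type larvae, in TPM on a log axis. Symbols are the means of 3 libraries of each of the 4 wild-type groups, colours mark the role, and grey lines span the 12 libraries. The 3 calcium-binding genes lie highest, and *pou4f3* of *gemin3* siblings (1.34 TPM) lies apart from the other wild types (5.69 to 6.83 TPM).

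The families differed among themselves in wild types, which a comparison across families would carry. The mean of *pou4f3* was 1.34 TPM ± 0.20 (SD, n = 3) in *gemin3* siblings, against 5.69 to 6.83 TPM in the other 3 wild-type groups. The mean of *pcdh15a* was 4.28 TPM ± 0.305 in *smn1* siblings and 4.57 TPM ± 0.504 in *gemin5* siblings, against 1.42 TPM ± 0.10 in *gemin3* siblings and 1.81 TPM ± 0.292 in the shared control (SD, n = 3 each). The level of *pvalb8* ran from 129 TPM in *gemin5* siblings to 498.5 TPM in *gemin3* siblings. Family and sequencing run cannot be told apart in these differences, and in *gemin3* siblings read length cannot either. The *pcdh15a* difference also lay between groups of the same read length, the *smn1* and *gemin5* siblings and the shared control. Each mutant was therefore tested only against the control assigned to it. That control included other families for *gemin4*, *gemin6* and *gemin7* mutants, and held no sibling of *gemin2* mutants.

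In *smn1* mutants *otofb* fell, *pvalb8* and *s100t* stood at 33.01% and 34.1% of the sibling level without passing in edgeR's fit of this family, and the transduction genes that could be tested lay between 96.7% and 123.8% of it. Values below are CPM, counts scaled to library size with edgeR's TMM factors, and each gene is compared with itself. The level of *otofb*, which encodes 1 of 2 zebrafish otoferlins, was 23.4, 18.4 and 19.4 CPM in the mutants and 40.8, 37.5 and 40.4 CPM in their siblings. The groups did not overlap, and the mutants stood at 51.6% ± 6.75 (SD, n = 3) of the sibling mean. It was the single hair cell gene to pass in that fit, with a log2 fold change of −0.96 (SE 0.112, adjusted p = 0.049 by edgeR's quasi-likelihood test). Across all genes 0.0921% passed, 0.0746% with a higher and 0.0175% with a lower level in the mutants.

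The call of *otofb* in *smn1* mutants was a narrow one. With DESeq2's size factors in place of TMM its adjusted p was 0.0503. Without sibling 1, 2 or 3 or mutant 2 or 3 it was 0.195 to 0.256, settings in which edgeR called 0 genes of any kind, and without mutant 1 it was 0.0248, where *s100t* passed too (−1.92, adjusted p = 0.0238). Its log2 fold change stayed between −1.06 and −0.89 in these settings. Replicates with the same number deviated together in this family, and with the replicate number as a block 3 hair cell genes fell, *otofb* (−0.96, adjusted p = 0.0016), *pvalb8* (−1.60, adjusted p = 0.00108) and *s100t* (−1.60, adjusted p = 0.00134), where 0.689% of all genes were called lower. DESeq2 called those 3 lower as well, at adjusted p-values of 5.39e-09 for *otofb*, 7.33e-09 for *pvalb8* and 2.17e-06 for *s100t* (0.292% of all genes). In 1 edgeR fit of all 33 libraries *s100t* (adjusted p = 0.00494), *pvalb8* (adjusted p = 0.0222) and *gipc3* (adjusted p = 0.0282) passed and *otofb* did not (adjusted p = 0.0674), where 0.285% of all genes were called lower.

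In edgeR's fit of the *smn1* family without the block, *pvalb8* and *s100t* had larger differences than *otofb* but did not pass. The level of *pvalb8* was 29.6, 24.4 and 17.6 CPM in the mutants and 92.0, 59.2 and 65.5 CPM in their siblings, or 33.01% ± 8.37 of the sibling mean (log2 fold change −1.60, SE 0.23, adjusted p = 0.0985). The level of *s100t* was 28.7, 16.3 and 14.0 CPM in the mutants and 66.3, 57.0 and 49.5 CPM in their siblings, or 34.1% ± 13.7 (log2 fold change −1.55, SE 0.265, adjusted p = 0.166). In both genes all mutants lay below all siblings. The mutants and siblings also did not overlap for *gipc3*, a PDZ-domain protein whose loss causes deafness in mice, at 1.23, 1.08 and 1.22 CPM against 2.40, 2.14 and 1.87 CPM. Its log2 fold change was −0.85 (SE 0.203, adjusted p = 0.411).

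Counted over the list, 21 of the 29 genes tested in *smn1* mutants had a negative log2 fold change and 8 a positive one, with a median of −0.23 against 0.01 for all 22797 genes tested. An unadjusted p below 0.05 was reached by 9 of the 29, all of them negative, against 5.93% of all genes. In 12 of the 29 genes tested the mutants lay below all siblings (6.69% of all genes) and in 1, *tmc1*, above them (5.41%). By role, all 5 fate genes and all 6 synapse genes were negative, with medians of −0.42 and −0.29. The 9 bundle genes had a median of −0.14, and 5 of the 6 transduction genes tested were positive, with a median of 0.17. Of the 3 calcium-binding genes, *s100s* did not share the difference of the other two, with 100.8% ± 4.40 of the sibling mean.

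In *gemin5* mutants *s100t*, *pvalb8* and *otofb* had the smallest p-values, though 0 of the 29 genes tested passed in edgeR's fit of this family without the block. The level of *s100t* was 22.5, 14.5 and 11.7 CPM in the mutants and 49.2, 34.9 and 38.1 CPM in their siblings. The mutants stood at 39.8% ± 13.7 (SD, n = 3) of the sibling mean, with a log2 fold change of −1.33 (SE 0.237, adjusted p = 0.0556). The level of *pvalb8* was 38.0, 27.0 and 20.9 CPM against 86.0, 54.4 and 53.2 CPM, a log2 fold change of −1.17 (SE 0.253, adjusted p = 0.105). The level of *otofb* was 22.3, 17.1 and 17.1 CPM against 34.4, 26.7 and 27.4 CPM, a log2 fold change of −0.64 (SE 0.141, adjusted p = 0.108). In all 3 genes the mutants lay below all siblings. Among all genes, 0.907% passed and 0.314% passed with a lower level. DESeq2 called all 3 genes lower, at adjusted p-values of 2.27e-06 for *s100t*, 0.000135 for *pvalb8* and 0.00521 for *otofb* (0.881% of all genes). With no filter on low counts (adjusted p = 0.0492) and in 1 edgeR fit of all 33 libraries (adjusted p = 0.0149, where 0.465% of all genes were called lower) *s100t* alone passed.

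In this family too, same-numbered libraries deviated together (r of 0.318 to 0.642). Mutant and sibling libraries numbered 1 and 2 also did so across numbers (0.267 and 0.268). With the replicate number as a block 4 hair cell genes fell. They were *pvalb8* (−1.17, adjusted p = 2.59e-05), *s100t* (−1.35, adjusted p = 7.83e-05), *otofb* (−0.65, adjusted p = 0.00049) and *myo6b* (−0.32, adjusted p = 0.0362), where 3.11% of all genes were called lower. The *myo6b* gene encodes the myosin that anchors the bundle and is widely used to mark hair cells. Its level was 15.6, 15.5 and 14.2 CPM in the mutants and 20.2, 18.1 and 18.2 CPM in the siblings, a smaller difference than those above, at 80.2% ± 4.04 of the sibling mean. In *smn1* mutants *myo6b* stood at 18.3, 15.0 and 14.4 CPM against 21.1, 19.8 and 19.2 CPM, or 79.3% ± 10.7, and did not pass (adjusted p = 0.767). Without mutant 1, *s100t* in *gemin5* mutants passed with no block as well (−1.63, adjusted p = 0.0202).

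Over the list, 20 of 29 genes tested in *gemin5* mutants were negative and 9 positive, with a median of −0.12 against 0.00 for all 22601 genes. An unadjusted p below 0.05 was reached by 7, all negative, against 11.6% of all genes. In 9 of the 29 genes tested the mutants lay below all siblings (8.82% of all genes) and in 0 above (9.35%). Of the 29 genes tested in both families, 8 lay below the siblings in both, against 2.67% of the 22188 genes tested in both. The 8 were *gipc3*, *myo6b*, *myo7aa*, *otofa*, *otofb*, *pou4f3*, *pvalb8* and *s100t*. The *chrna9a* gene, for the nicotinic receptor of efferent input, was at 59.4% ± 19.1 in *smn1* mutants and at 100.3% ± 23.9 in *gemin5* mutants, a contrast that was not tested.

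**Figure D2:**
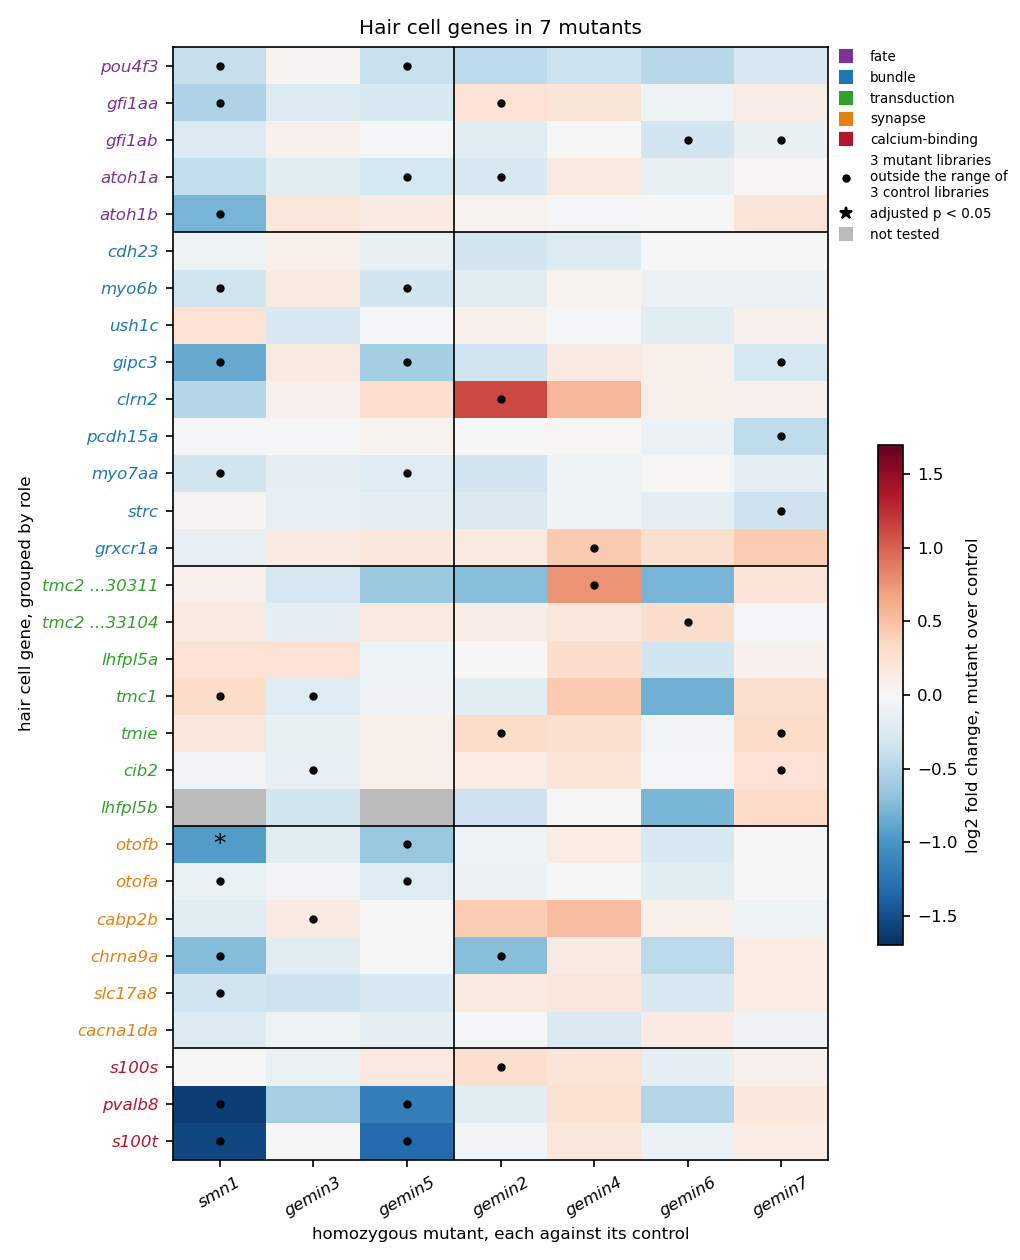
Log2 fold changes of 30 hair cell genes, ordered by role, in the 7 mutants, each against its control. Colour gives the log2 fold change (blue lower, red higher in mutants), a dot marks genes whose 3 mutant libraries lay outside the range of the 3 control libraries, and a star an adjusted p below 0.05 (*otofb* in *smn1* mutants, whose libraries also did not overlap), and grey cells were not tested. The darkest blue cells are *pvalb8* (−1.60) and *s100t* (−1.55) in *smn1* mutants, and the darkest red cell is *clrn2* (1.12) in *gemin2* mutants.

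The *lhfpl5b* gene, which in zebrafish serves the transduction complex of lateral line hair cells while its paralogue *lhfpl5a* serves the ear, was too low to be tested within the *smn1* and *gemin5* families. It had 8, 2 and 4 reads in *smn1* mutants and 21, 7 and 15 reads in their siblings. The reads summed to 14 and 43, a rate of 34.3% of the siblings' (exact 95% interval 17.3% to 63.9%, for counting error only). In *gemin5* mutants it had 1, 3 and 2 reads and in their siblings 7, 12 and 17 reads. That rate was 16.1% of the siblings' (5.56% to 38.7%). In *smn1* mutants the groups overlapped, at 0.23, 0.06 and 0.12 CPM against 0.61, 0.19 and 0.41 CPM, but each mutant lay below the sibling of the same number. In *gemin5* mutants the groups did not overlap. With no filter on low counts, edgeR gave log2 fold changes of −1.50 (SE 0.637, adjusted p = 0.948) and −2.57 (SE 0.605, adjusted p = 0.139). The paralogue *lhfpl5a* stood at 0.80, 0.51 and 0.46 CPM in *smn1* mutants against 0.53, 0.54 and 0.43 CPM, and at 0.68, 0.57 and 0.29 CPM in *gemin5* mutants against 0.61, 0.41 and 0.60 CPM, with overlap in both families.

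In *gemin3* mutants no hair cell gene passed with all libraries, where edgeR called 0.978% of all genes, and 0 of the 30 reached an unadjusted p below 0.05 (11.4% of all genes). DESeq2 also called 0 of the 30. The median over the 30 was −0.12 against −0.01 for all 24229 genes, with 20 negative and 10 positive. The 3 smallest p-values belonged to *slc17a8*, the vesicular glutamate transporter Vglut3 that fills synaptic vesicles (log2 fold change −0.35, SE 0.179, adjusted p = 0.515), *pvalb8* (−0.57, SE 0.295, adjusted p = 0.524) and *myo6b* (0.15, SE 0.0829, adjusted p = 0.547). In 2 genes, *cib2* and *tmc1*, the mutants lay below all siblings (9.26% of all genes), and in 1, *cabp2b*, above them (9.69%).

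Wild-type library 3 of the *gemin3* family decided much of this. Its *pvalb8* level was 138 CPM where the other 2 siblings had 323.5 and 309 CPM, and the mutants had 199, 181 and 143 CPM. Its *s100t* level was 44.1 CPM where the others had 107 and 94.7 CPM and the mutants 84.1, 89.4 and 72.0 CPM, and its *otofb* level was 31.8 CPM against 65.1 and 62.9 CPM, with 51.2, 49.2 and 40.8 CPM in the mutants. In 15 of the 30 genes that library lay below all 3 mutants, and in 17 it was the lowest sibling. In 10 it held less than 70% of the mean of the other two, among them *lhfpl5b* (21.0%), *pvalb8* (43.5%), *s100t* (43.8%), *atoh1a* (49.0%) and *otofb* (49.7%). The shares of all genes in such positions were not counted, so these counts describe the list only. The *pcdh15a*, *otofa* and *myo6b* levels of that library were close to those of its siblings, at 7.60, 33.5 and 21.7 CPM. In other genes it was the higher one, with 168% of the mean of the other two for *tmie*, 141% for *ush1c*, 136% for ENSDARG00000033104, 132% for *strc* and 126% for *s100s*. Mutant library 3 of this family was likewise the lowest mutant for *lhfpl5b*, *pvalb8*, *s100t*, *atoh1a* and *otofb*, but not for *slc17a8*, *chrna9a* or *grxcr1a*. Deviations of the mutant and wild-type libraries numbered 3 correlated over the genes tested (r = 0.385). What set the wild-type library apart was not tested.

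Without that library, *pvalb8* (−0.87, SE 0.123, adjusted p = 0.00731) and *otofb* (−0.45, SE 0.0946, adjusted p = 0.0444) fell in *gemin3* mutants, where 1.19% of all genes were called lower. The library was singled out for low levels of these same genes, and leaving it out raises the sibling mean. Mutant library 3, the lowest mutant for both genes, stayed in that fit. Fits without it, here and below, are thus a description and no independent support for a fall. With all 6 libraries *otofb* was at 88.3% ± 10.4 of the sibling mean (−0.19, SE 0.246, adjusted p = 0.808). The *s100t* gene had a log2 fold change of −0.30 without that library (SE 0.098, adjusted p = 0.166) and of −0.01 with it (SE 0.283, adjusted p = 0.996), where the mutants stood at 100.1% ± 10.9. With the replicate number as a block and both libraries numbered 3 left out, *pvalb8* and *otofb* fell again (*pvalb8* −0.74, adjusted p = 0.00362, and *otofb* −0.36, adjusted p = 0.0296), where 1.30% of all genes were called lower. With the block and all 6 libraries, 0 of the 30 did.

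**Figure D3:**
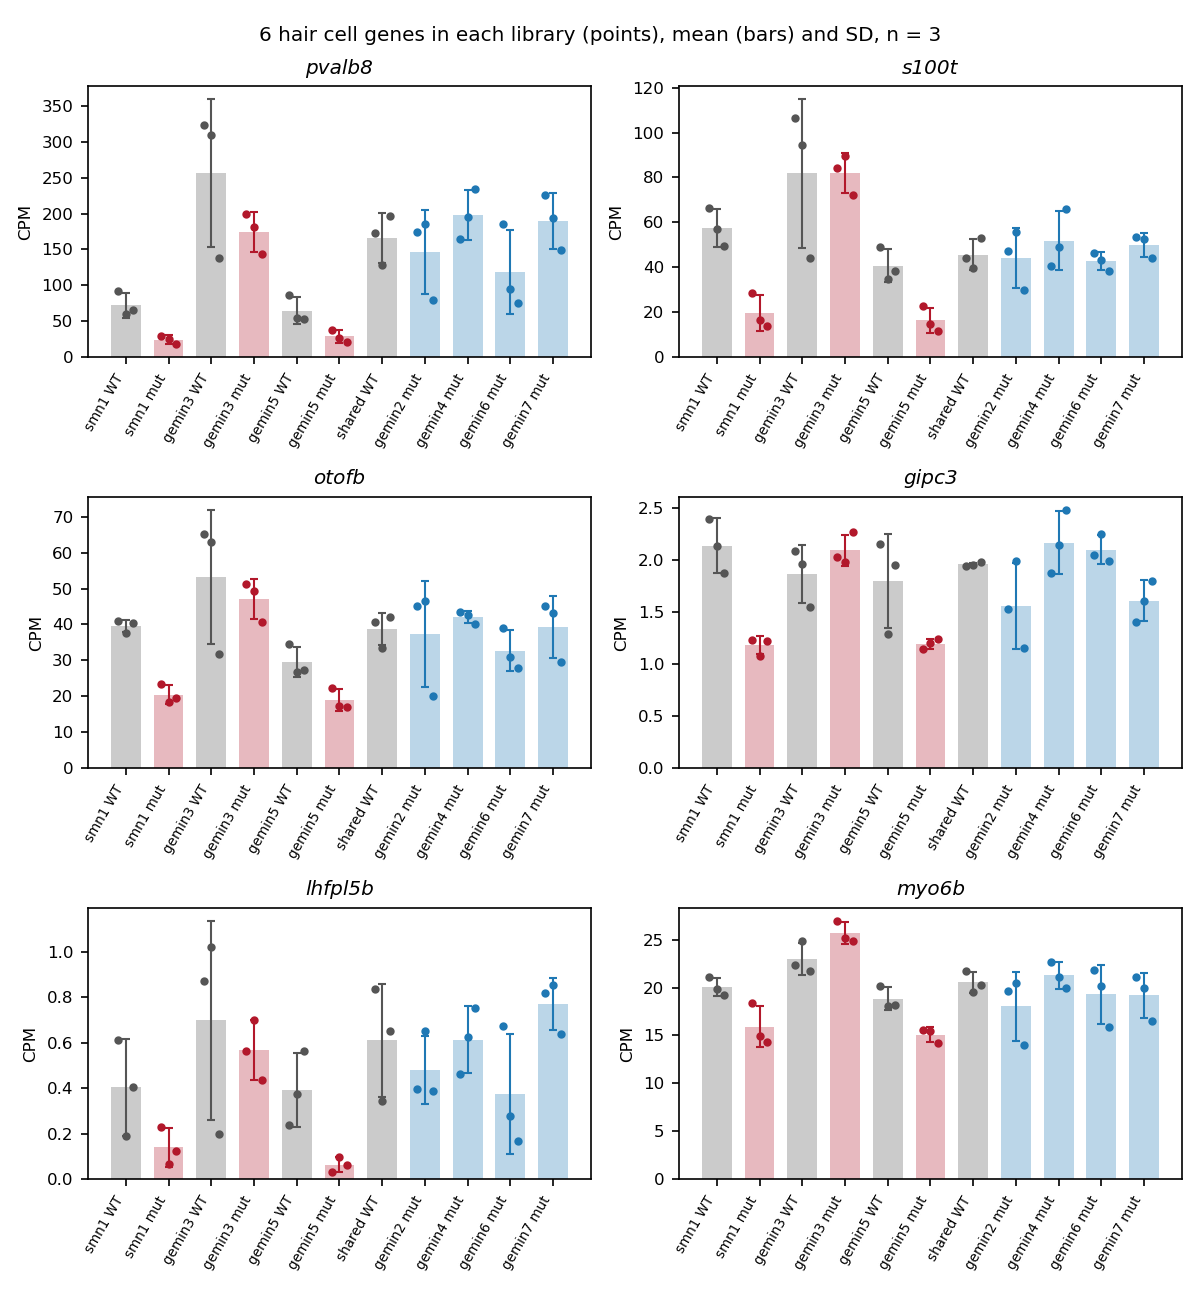
CPM of 6 hair cell genes in every library (points), with the group mean (bars) and SD, n = 3. Grey marks wild types, red the *smn1*, *gemin3* and *gemin5* mutants and blue the other 4 mutants. All *smn1* and *gemin5* mutants lie below their siblings for *pvalb8*, *s100t*, *otofb*, *gipc3* and *myo6b*, and the low point among *gemin3* wild types is library 3.

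Of the fate genes, *pou4f3* was lower in *smn1* and *gemin5* mutants than in all of their siblings, by a smaller margin than *pvalb8* and *s100t* and without passing. Its level was 3.16, 3.40 and 2.48 CPM in *smn1* mutants against 3.98, 3.54 and 4.34 CPM (log2 fold change −0.39, adjusted p = 0.872). In *gemin5* mutants it was 2.97, 2.94 and 2.98 CPM against 4.13, 3.82 and 3.58 CPM (−0.37, adjusted p = 0.321), and in *gemin3* mutants 1.00, 0.91 and 0.84 CPM against 0.90, 0.74 and 0.99 CPM (0.05, adjusted p = 0.935). The level of *atoh1a* overlapped in *smn1* mutants, with 1.69, 1.14 and 1.38 CPM against 1.64, 2.19 and 1.82 CPM. It did not overlap in *gemin5* mutants, with 1.76, 1.49 and 1.59 CPM against 1.81, 2.07 and 2.09 CPM. In *gemin3* mutants it was 1.63, 1.37 and 1.20 CPM against 1.99, 1.84 and 0.94 CPM. The *atoh1a* and *atoh1b* genes are also expressed in the hindbrain, and *pou4f3*, *atoh1b* and *gfi1aa* lay between 57.8% and 76.2% of the sibling mean in *smn1* mutants with adjusted p-values from 0.767 to 0.872.

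The 2 *tmc2* genes, which encode pore-forming subunits of the transduction channel, passed in none of the 3 regeneration mutants. ENSDARG00000030311 had 0.46, 2.51 and 1.13 CPM in *smn1* mutants against 0.91, 1.19 and 1.74 CPM, and 1.27, 0.89 and 1.74 CPM in *gemin5* mutants against 2.35, 1.66 and 2.05 CPM. In *gemin3* mutants it had 1.71, 1.44 and 1.33 CPM against 2.10, 2.11 and 1.22 CPM. The groups overlapped in each case, and the *smn1* mutants ran from 0.46 to 2.51 CPM. ENSDARG00000033104 had 4.16, 2.76 and 2.57 CPM in *smn1* mutants against 2.63, 3.25 and 2.68 CPM, and 3.03, 2.37 and 3.20 CPM in *gemin5* mutants against 2.49, 2.66 and 2.62 CPM. In *gemin3* mutants it had 3.26, 3.51 and 3.98 CPM against 3.47, 3.65 and 4.86 CPM, again with overlap. The other transduction genes, *tmc1*, *tmie* and *cib2*, stood between 86.2% and 123.8% of the sibling mean in these 3 mutants, and none passed.

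The otoferlin paralogue *otofa* stood closer to its siblings than *otofb* in the *smn1* and *gemin5* families. In *smn1* mutants *otofa* had 42.5, 41.1 and 38.7 CPM against 43.2, 44.4 and 45.2 CPM, or 92.1% ± 4.29, beside 51.6% ± 6.75 for *otofb*. In *gemin5* mutants *otofa* had 30.9, 31.6 and 34.1 CPM against 34.7, 36.4 and 41.5 CPM, or 85.8% ± 4.45, beside 63.9% ± 10.2 for *otofb*. The *otofa* groups did not overlap in either family, but it did not pass (adjusted p = 0.942 and 0.423). The difference between the paralogues was not tested. Of the other synapse genes, *cacna1da*, the Cav1.3 channel, stood at 84.9% ± 13.1 and 89.2% ± 5.29, and the calcium sensor *cabp2b* at 87.9% ± 21.9 and 99.8% ± 6.44. The transporter gene *slc17a8* stood at 79.05% ± 5.30 in *smn1* mutants, all below their siblings, and at 83.5% ± 12.9 in *gemin5* mutants, with overlap, and it did not pass (adjusted p = 0.926 and 0.704).

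In the non-regeneration mutants 0 of the 30 genes passed in any of the 4 comparisons by edgeR, and DESeq2 likewise called 0. Across all genes 5.39% passed in *gemin2* mutants (2.28% higher and 3.11% lower), 0.0173% in *gemin4* mutants (0.013% higher and 0.00434% lower) and 0.0% in *gemin6* and *gemin7* mutants. An unadjusted p below 0.05 was reached by 4, 1, 1 and 1 of the 30 in *gemin2*, *gemin4*, *gemin6* and *gemin7* mutants, against 20.8%, 5.68%, 3.69% and 8.23% of all genes. The medians over the 30 were −0.06, 0.15, −0.12 and 0.07. Negative log2 fold changes were found in 18, 8, 23 and 12 of the 30 (49.96%, 49.86%, 50.05% and 51.11% of all genes). The 3 mutant libraries lay below the 3 controls in 2, 0, 1 and 4 of the 30 genes (13.4%, 5.57%, 4.49% and 8.23% of all genes) and above them in 4, 2, 1 and 2 (13.7%, 5.71%, 4.28% and 5.7%). Because these mutants shared their control, a high or low control library moves all 4 medians together.

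The *s100t*, *pvalb8* and *otofb* levels overlapped the control in all 4 of these mutants. The shared controls had 44.0, 39.5 and 53.1 CPM of *s100t*, against 47.0, 55.8 and 29.7 CPM in *gemin2* mutants, 40.5, 49.0 and 66.2 CPM in *gemin4* mutants, 46.4, 43.4 and 38.4 CPM in *gemin6* mutants and 53.5, 52.7 and 43.9 CPM in *gemin7* mutants. For *pvalb8* the controls had 174, 128.5 and 197 CPM, against 175, 185 and 79.5 CPM in *gemin2* mutants, 164, 195.5 and 234 CPM in *gemin4* mutants, 186, 94.9 and 74.9 CPM in *gemin6* mutants and 226.5, 194 and 149 CPM in *gemin7* mutants. For *pvalb8*, *gemin2* mutant 3 and *gemin6* mutants 2 and 3 were the low libraries. For *otofb* the controls had 40.6, 33.6 and 42.0 CPM, against 45.02, 46.5 and 20.2 CPM, 43.4, 42.8 and 40.1 CPM, 39.0, 31.0 and 27.9 CPM, and 45.04, 43.3 and 29.4 CPM in the same order of mutants. The marker *myo6b* had 21.8, 19.5 and 20.3 CPM in the controls, and from 13.9 to 22.7 CPM in the 12 mutant libraries. The *gipc3* level lay below all controls in *gemin7* mutants, with 1.41, 1.61 and 1.80 CPM against 1.94, 1.95 and 1.98 CPM. In *gemin2* mutants it was 1.53, 1.99 and 1.16 CPM, with overlap. Its mean was 2.17 CPM in *gemin4* and 2.10 CPM in *gemin6* mutants, against 1.96 CPM in the controls. The level of *lhfpl5b* in *gemin2* mutants was 73.4% of the control rate (exact 95% interval 51.0% to 104.7%, for counting error only). It was 94.2% in *gemin4* (66.8% to 132.4%), 59.0% in *gemin6* (39.6% to 86.6%) and 123.8% in *gemin7* mutants (91.1% to 168.5%). Of these intervals, that of *gemin6* mutants alone lay wholly below the control rate. Their libraries overlapped the controls, at 0.67, 0.28 and 0.17 CPM against 0.84, 0.34 and 0.65 CPM.

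The largest single difference in these 4 mutants was in *clrn2*, a clarin of the hair bundle, in *gemin2* mutants. It had 0.77, 1.14 and 0.94 CPM there against 0.40, 0.56 and 0.35 CPM in the shared controls, all above them, with a log2 fold change of 1.12 (SE 0.301, adjusted p = 0.073). In 1 fit of all 33 libraries it passed (1.12, adjusted p = 0.0101), as did *chrna9a* in the other direction (−0.72, adjusted p = 0.0349). In that fit 2694 of all 24535 genes were called in *gemin2* mutants, 1266 higher and 1428 lower. With the *gemin2* and control libraries alone *chrna9a* did not pass (−0.73, SE 0.235, adjusted p = 0.124). Its level was 1.96, 2.56 and 1.57 CPM in *gemin2* mutants against 3.64, 2.69 and 3.69 CPM. The third smallest p in *gemin2* mutants was that of *cabp2b* (log2 fold change 0.44, SE 0.178, adjusted p = 0.21).

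The smallest p-values in the other 3 mutants did not pass. In *gemin4* mutants they belonged to *cabp2b* (log2 fold change 0.53, adjusted p = 0.867), the *tmc2* gene ENSDARG00000030311 (0.76, adjusted p = 0.868) and *pou4f3* (−0.37, adjusted p = 0.869). That *tmc2* gene had 4.87, 4.44 and 5.31 CPM in *gemin4* mutants against 3.34, 1.29 and 3.94 CPM in the shared controls, which did not overlap, and it had 2.11, 2.23 and 0.96 CPM in *gemin2* mutants, 2.75, 1.05 and 1.32 CPM in *gemin6* mutants and 3.73, 3.58 and 2.84 CPM in *gemin7* mutants. In *gemin6* mutants the smallest p-values were those of *pou4f3* (−0.47, adjusted p = 0.991), *tmc1* (−0.82, adjusted p = 0.991) and the second *tmc2* gene, ENSDARG00000033104 (0.30, adjusted p = 0.991), which had 3.52, 2.90 and 3.14 CPM against 2.70, 2.49 and 2.496 CPM in the controls. In *gemin7* mutants they were those of *pcdh15a* (−0.43, adjusted p = 0.575), *strc*, for stereocilin (−0.36, adjusted p = 0.633), and *cib2* (0.24, adjusted p = 0.639). The range of *tmc1* in the shared controls, 4.96, 1.71 and 4.25 CPM, was wider than in any sibling group. The second control library was also the lowest control for *slc17a8*, *chrna9a*, *lhfpl5b*, *pvalb8*, *s100t*, *otofb*, *myo6b*, *pou4f3* and ENSDARG00000030311, among others. For *gfi1aa*, *clrn2* and *grxcr1a* it was the highest control.

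The mean change over the 3 regeneration mutants, each against its own siblings, was fitted on all 33 libraries, and 5 of the 30 genes fell while 0 rose. Of all 24535 genes 4.97% passed, 2.43% lower and 2.54% higher. The *s100t* gene fell by 0.96 on the log2 scale (SE 0.164, adjusted p = 0.000312) and *pvalb8* by 1.11 (SE 0.199, adjusted p = 0.00055). The *otofb* gene fell by 0.59 (SE 0.139, adjusted p = 0.00917) and *lhfpl5b* fell by 1.46 (SE 0.365, adjusted p = 0.0146). The *gipc3* gene fell by 0.42 (SE 0.109, adjusted p = 0.0179). The 5 genes hold 2 calcium-binding proteins, a vesicle-release protein, a transduction protein and a bundle protein, and none is a fate gene. The *gipc3* level in *gemin3* mutants was 2.03, 1.98 and 2.27 CPM against 2.08, 1.96 and 1.55 CPM, and in *gemin5* mutants 1.14, 1.20 and 1.24 CPM against 2.15, 1.28 and 1.95 CPM. The *lhfpl5b* reads of *gemin3* mutants were 47, 63 and 34 against 54, 84 and 14.

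An unadjusted p below 0.05 was reached by 12 of the 30 genes in this mean change, all negative, against 17.2% of all genes, and 24 of the 30 were negative with a median of −0.14 (0.00 for all genes). The next gene in order was *gfi1aa*, a repressor needed for hair cell maturation (−0.34, adjusted p = 0.0714). With DESeq2 it fell as well (adjusted p = 0.0476), where 2.57% of all genes were called lower. With the block *gfi1aa* (adjusted p = 0.0249) and *myo7aa*, the myosin of Usher syndrome type 1 (adjusted p = 0.0284), joined the 5, where 3.37% were. Without the third *gemin3* wild-type library *atoh1a* joined them instead (−0.39, adjusted p = 0.0333), where 2.0% were. With the *smn1* and *gemin5* mutants alone, 6 fell, the 5 and *myo6b* (−0.33, adjusted p = 0.0471), where 1.33% were. The count depended on the replicates. Without all libraries numbered 1 it was 2 (*pvalb8* and *s100t*), where 287 of 24656 genes were called lower. Without those numbered 2 it was 0, where 286 of all genes passed. Without those numbered 3 it was 5, with *myo7aa* (adjusted p = 0.0279) in and *lhfpl5b* out, where 469 of 24541 genes were called lower.

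The mean change over the non-regeneration mutants held no call among the 30, where 0.318% of all genes passed (0.0978% higher and 0.22% lower), and 1 of the 30, *pou4f3*, reached an unadjusted p below 0.05 (6.63% of all genes). DESeq2 called 0 as well. The *pou4f3* gene had a mean log2 fold change of −0.38 (SE 0.127, adjusted p = 0.434), followed by *clrn2* (0.46, SE 0.235, adjusted p = 0.774) and *cabp2b* (0.25, SE 0.137, adjusted p = 0.809). The median over the 30 was −0.05, with 18 negative and 12 positive. Thus *pou4f3* had a mean of −0.24 in regeneration mutants and −0.38 in non-regeneration mutants, and neither passed.

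**Figure D4:**
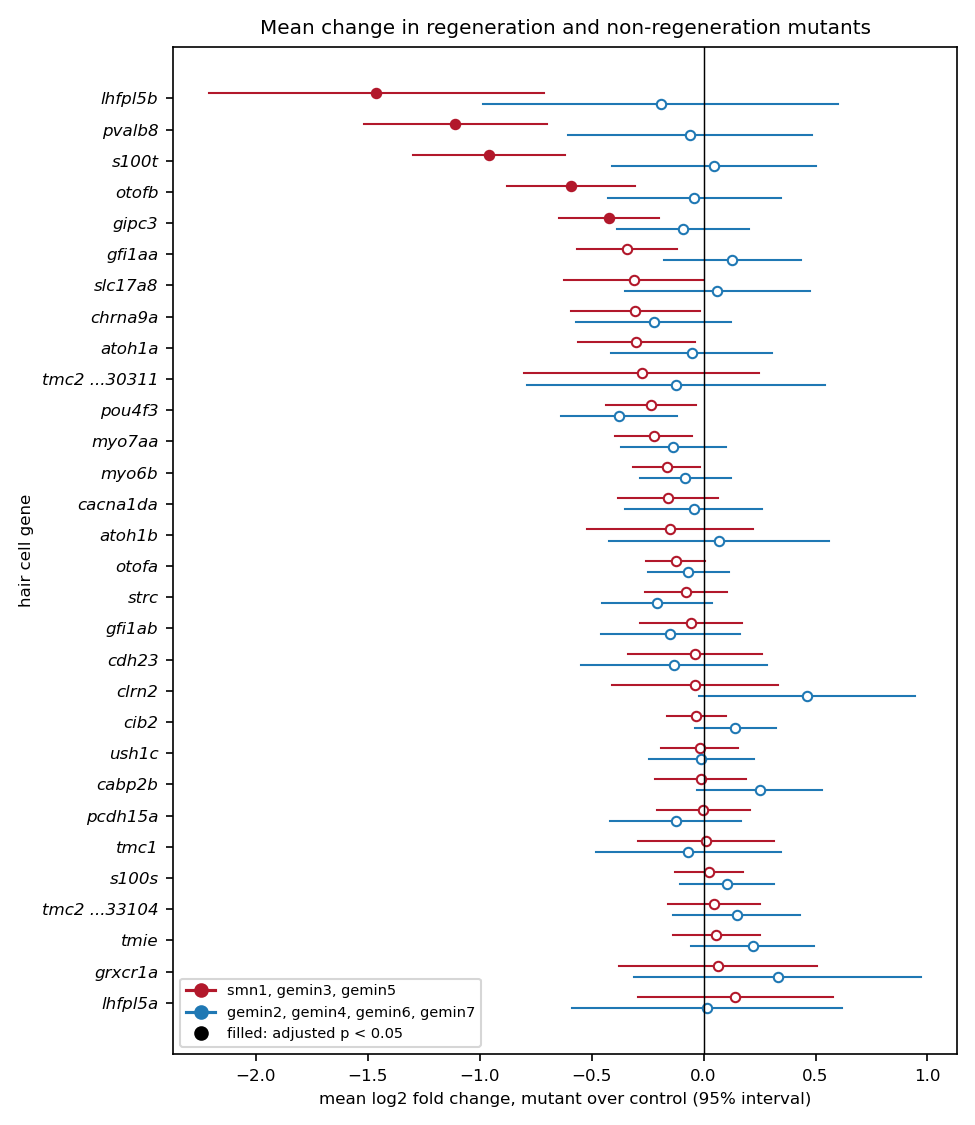
Mean log2 fold change of each hair cell gene over the 3 regeneration mutants (red) and over the 4 non-regeneration mutants (blue), with 95% intervals derived from the F statistics of the edgeR fit of all 33 libraries. Filled points passed at an adjusted p below 0.05, and the 5 filled points are *lhfpl5b*, *pvalb8*, *s100t*, *otofb* and *gipc3* in regeneration mutants.

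The difference between the 2 kinds of mutant was tested directly, and 0 of the 30 genes passed by edgeR (0.538% of all genes, 0.375% higher and 0.163% lower), with 5 at an unadjusted p below 0.05 (8.01% of all genes). The gene with the smallest p was *s100t*, whose mean change was lower in regeneration mutants (log2 difference −1.01, SE 0.284, 95% interval −1.59 to −0.42, adjusted p = 0.148). It was followed by *pvalb8* (−1.05, SE 0.342, 95% interval −1.75 to −0.35, adjusted p = 0.259) and *gfi1aa* (−0.47, SE 0.185, adjusted p = 0.458). The *s100t* difference passed with DESeq2 (adjusted p = 0.0327), where 0.262% of all genes were called lower, and with the replicate block (adjusted p = 0.0376), where 0.326% were. It also passed without the third *gemin3* wild-type library (−1.10, adjusted p = 0.0435), where 0.125% were. Without all libraries numbered 3 it passed (−1.16, adjusted p = 0.047), as did *otofb* (−0.80, adjusted p = 0.0407), where 15 of 24541 genes were called lower. Thus *s100t* passed in 4 of 9 alternatives. It did not pass with DESeq2's size factors in edgeR, with no filter, without the libraries numbered 1 or 2, or without *gemin2* mutants. Its log2 difference ran from −1.16 to −0.80 over the 9. The contrast sets sibling controls against a shared control, and *gemin2* mutants had no sibling in it.

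Whether *gemin3* mutants differed from the other 2 regeneration mutants was likewise tested, and 0 of the 30 passed by edgeR (0.0326% of all genes, 0.0204% higher and 0.0122% lower), with 6 at an unadjusted p below 0.05 (2.48% of all genes). For *s100t* the mean change of *smn1* and *gemin5* mutants was below that of *gemin3* mutants by a log2 difference of −1.44 (SE 0.345, 95% interval −2.15 to −0.73, adjusted p = 0.354). For *gipc3* it was −0.88 (SE 0.223, adjusted p = 0.48) and for *myo6b* −0.49 (SE 0.154). Without the third *gemin3* wild-type library 0 of the 30 passed (0.0% of all genes called lower), and these differences were −1.14 for *s100t* (SE 0.327, adjusted p = 0.997), −0.77 for *gipc3* and −0.45 for *myo6b*. That of *lhfpl5b* went from −1.75 to −1.31. This contrast was chosen after the values had been seen, and DESeq2 was not run on it.

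Within groups the hair cell genes did not vary as 1 block. Each library's log2 CPM was taken as its deviation from the mean of its group, over 33 libraries that share family, depth and normalization, so the correlations below are a description. Of 435 pairs of genes, 51 had a Pearson's r above 0.5, 144 were below 0 and the median was 0.13. The pair highest in r was *otofb* with *pvalb8* (0.87), then *s100t* with *pvalb8* (0.86). Against the mean of the other 29 genes, r was 0.86 for *pvalb8*, 0.83 for *slc17a8* and for *otofb*, 0.76 for *myo6b*, 0.75 for *chrna9a*, 0.68 for *s100t* and 0.60 for *lhfpl5b*. At the other end were *tmie* (−0.28), *ush1c* (−0.20), *strc* (−0.16) and *cib2* (−0.08). Without wild-type library 3 of the *gemin3* family, a setting of 32 libraries that was chosen after seeing the data, *tmie* (0.02) and *strc* (0.0014) were no longer negative and *ush1c* was at −0.0064, while *otofb* with *pvalb8* (0.84) and *s100t* with *pvalb8* (0.82) stayed high, and 53 pairs were above 0.5 and 130 below 0. Other pairs were high apart from these, *cdh23* with *cacna1da* (0.83) and *pcdh15a* with *otofa* (0.79). Thus *pvalb8*, *s100t* and *otofb*, the genes with the smallest p-values in *smn1* and *gemin5* mutants, also varied together among replicates, while *gipc3* did so less, with an r of 0.41 against the mean of the others.

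**Figure D5:**
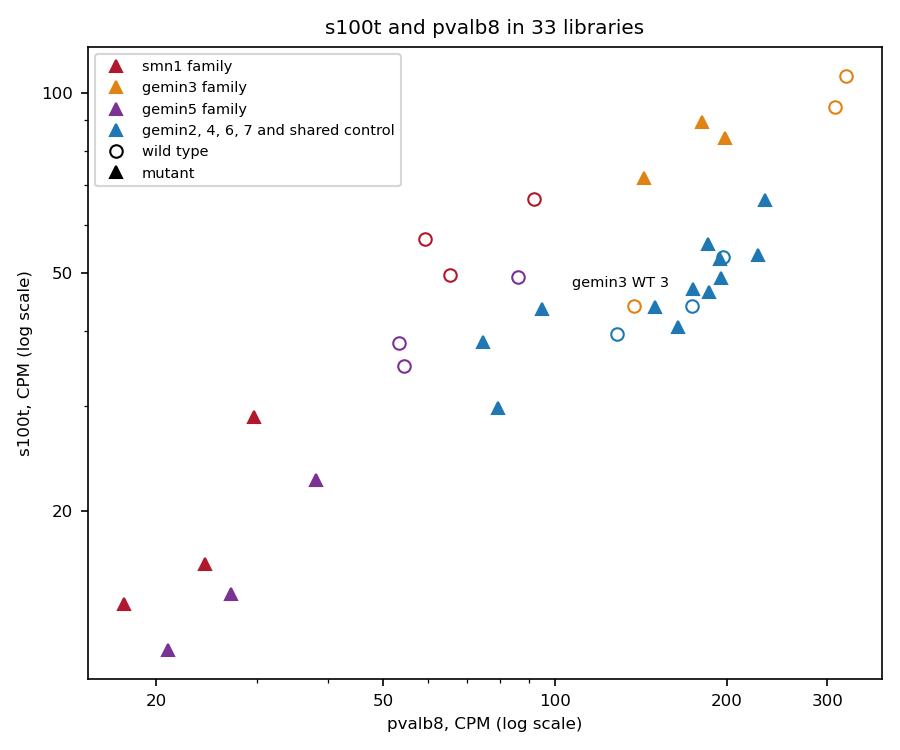
CPM of *s100t* against *pvalb8* in the 33 libraries, on log axes. Circles are wild types, triangles mutants and colours families. The 6 *smn1* and *gemin5* mutants lie at 11.7 to 28.7 CPM of *s100t* and 17.6 to 38.0 CPM of *pvalb8*, against 34.9 to 66.3 CPM and 53.2 to 92.0 CPM in their own siblings. Wild-type library 3 of the *gemin3* family, at 44.1 and 138 CPM, lies below its siblings in both genes.

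A second list held other hair cell genes, with 27 of 38 listed symbols measured. In the mean change of the regeneration mutants 5 of 27 fell and 0 rose, beside 2.43% of all genes called lower and 2.54% higher. The median of the 27 was −0.14. Those that fell were *fscn2b*, an actin crosslinker (−0.42), *insm1a*, a transcription factor of neuroendocrine and hair cells (−0.80), *ctbp2a*, whose product builds synaptic ribbons (−0.25), *chrna10a*, the partner of *chrna9a* (−0.36), and *calb2b*, a calretinin (−0.33). The *insm1a* gene also fell in the mean change of the non-regeneration mutants (−0.71, adjusted p = 0.0113) and in *gemin2* and *gemin3* mutants alone. Of the 27, 21 were negative in the mean change of the regeneration mutants and 19 in that of the non-regeneration mutants, whose median was −0.09. In the difference between the kinds of mutant 15 of the 27 were negative, with a median of −0.08 and 0 calls (0.163% of all genes called lower). The summed level of the 27 was 626 to 670 CPM in *smn1* mutants against 705 to 729 CPM, and 659.5 to 702 CPM in *gemin5* mutants against 715 to 800 CPM. That of the 30 genes described here was 261 to 316 CPM against 397 to 452 CPM in the *smn1* family and 278 to 307.5 CPM against 359 to 411.5 CPM in the *gemin5* family. In the *gemin3* family it was 472 to 532 CPM against 431 to 712 CPM. The genes with the highest levels weigh most in these sums. Mean *pvalb8*, *s100t* and *otofb* were 23.85, 19.7 and 20.4 CPM in *smn1* mutants against 72.3, 57.6 and 39.6 CPM. In *gemin5* mutants they were 28.7, 16.2 and 18.85 CPM against 64.5, 40.7 and 29.5 CPM. The median log2 fold changes over the genes tested were −0.23 and −0.12 in these 2 mutants.

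For the next lists too, 2.43% of all genes were called lower and 2.54% higher in the mean change of the regeneration mutants. Of 18 neuromast support cell genes measured of 22 listed, 6 fell in it (*isl1*, *lef1*, *cxcr4b*, *prox1a*, *tfap2a* and *fndc7rs4*) and 0 rose, with a median of −0.07. Most of these are also expressed outside neuromasts. The largest of them was *fndc7rs4* (−0.77, SE 0.196, adjusted p = 0.0169), which fell in *gemin5* mutants alone as well. The summed level of the 18 overlapped the siblings' in the *smn1* family (563 to 729 CPM against 599 to 704 CPM) and in the *gemin5* family (614 to 731 CPM against 612 to 642 CPM). Of the 18, 11 were negative in the mean change of the regeneration mutants and 10 in that of the non-regeneration mutants (median −0.03, 0 calls). Of 15 Notch pathway genes of 20 listed, 2 fell in the mean change of the regeneration mutants, the ligands *dla* (−0.51) and *dlb* (−0.41). The summed level of the 15 overlapped in all 3 families. In that mean change 12 of the 15 were negative (median −0.07), and 12 were in that of the non-regeneration mutants (median −0.10, 0 calls). Of 12 genes of the ear other than hair cells, of 14 listed, 0 fell in the regeneration mutants' mean change and *foxi1*, known for the otic placode and skin ionocytes, rose (0.75). Their median was 0.01, and their summed level was 373 to 394 CPM in *smn1* mutants against 390 to 424 CPM and 363 to 408 CPM in *gemin5* mutants against 357 to 386 CPM.

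Lists for other tissues moved in the same mean change, where 2.43% of all genes were called lower and 2.54% higher. Their part in the hair cell gene result was not tested. Of 9 hindbrain granule lineage genes of 11 listed, 6 fell (*zic1*, *barhl1a*, *barhl1b*, *barhl2*, *pax6a* and *cbln12*), all 9 were negative and the median was −0.43. That list was also negative in all 9 in the non-regeneration mutants, with a median of −0.36 and 0 calls. Its summed level was 490 to 675 CPM in *smn1* mutants against 569 to 735 CPM, 326 to 369 CPM in *gemin5* mutants against 378 to 460 CPM, and 231 to 233 CPM in *gemin3* mutants against 260 to 333 CPM. Of 10 photoreceptor and bipolar cell genes of 14 listed, 2 fell (*crx* and *vsx1*), all 10 were negative and the median was −0.14. In the non-regeneration mutants 2 of the 10 were negative, with a median of 0.24 and 0 calls. In the difference between the kinds of mutant all 10 were negative, with a median of −0.34 and 0 calls. The summed level of the 10 overlapped in all 3 families, at 1996 to 3096 CPM. Of 8 blood genes of 12 listed, 2 fell (*lyz*, −1.46, and *myb*, −0.48), and their summed level was 41.0 to 63.5 CPM against 79.3 to 113 CPM in the *smn1* family, 43.7 to 65.9 CPM against 59.8 to 105 CPM in the *gemin5* family and 109 to 164.5 CPM against 140 to 157 CPM in the *gemin3* family. In single mutants the genes of these lists that fell were *lyz* in *smn1* mutants, *cbln12* in *gemin3* and *gemin5* mutants and the blood genes *lyz*, *mpx* and *spi1b* in *gemin2* mutants, where *coch* of the ear (0.65) and *gnat1* of rods (0.91) rose. In the difference between the kinds of mutant *cbln12* passed (−0.65, adjusted p = 0.0193).

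The 4 symbols that could not be resolved add no call. Their 8 identifiers, of which 7 had a mean count of 10 or more, were called in 0 of the 7 mutants and in 0 of the mean contrasts by edgeR, with log2 fold changes from −0.57 to 0.75 and adjusted p-values of 0.228 or more in the 7 mutants.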

How the data were processed

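RNA-Seq was made from 33 pools of larvae, 3 for each of 11 groups, with 150-nt reads in the *gemin3* family and 125-nt reads in the others. The authors deposited RSEM expected counts and TPM per Ensembl gene and library. The submitters' processing notes name Trimmomatic 0.36, STAR 2.5.4a, HISAT2 2.2.1.0 and RSEM with a zebrafish genome, and the study's methods name another STAR release. The deposited expected counts were rounded to whole numbers (1 of 990 values of the 30 genes lay more than 0.005 from a whole number). TPM served for levels in wild types and the mutated genes.

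Symbols were matched to identifiers through a gene table with 26982 of 34707 identifiers named, 10 exactly, 5 from the study's tables of names, 7 by capitals, 6 by elimination of a paralogue (a rule that agreed in 154 of 156 test cases) and 2 as the *tmc2* pair. The genes and lists were chosen with earlier results of these data known. Every called gene is named, or the 3 smallest p-values where fewer than 3 were called. Per-library values are given in all 7 mutants for *otofb*, *s100t* and *pvalb8*. In some of the mutants they are given for *atoh1a*, *pou4f3*, *myo6b*, both *tmc2* genes, *gipc3*, *lhfpl5b* and paralogues. The contrast of *gemin3* mutants with *smn1* and *gemin5* mutants was added after the values were seen.

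Each mutant was fitted with its control in edgeR 4.0.16 (R 4.3.3; filterByExpr, TMM, two-sided quasi-likelihood test), and mean changes in a fit of all 33 libraries, with p-values adjusted by Benjamini and Hochberg's method across every gene in the fit and a threshold of 0.05. The script was tested on simulated data. Alternatives were DESeq2 1.42.0, its size factors within edgeR, no filter, a replicate block, 1 fit of all libraries and leaving out libraries. Replicate numbers come from the labels, and deviations of same-numbered libraries correlated in all 3 pairs of *smn1* (0.505 to 0.703), *gemin5* (0.318 to 0.642) and *gemin3* (0.146 to 0.385). In the other mutants those correlations ran from −0.201 to 0.287. Libraries numbered 1 and 2 also correlated across numbers in *gemin5* (0.267 and 0.268) and *gemin3* (0.169 and 0.0886). Small RNA libraries were not used here.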

Additional observations from a re-analysis of the deposited data

How the results depend on the processing

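No gene that passed changed direction under any alternative, while the median over the genes changed sign in *gemin2* mutants (−0.20 to 0.04) and *gemin7* mutants (−0.05 to 0.10) when single libraries were left out. The count of hair cell genes called in *smn1* mutants (1) was 0 with DESeq2's size factors and 3 with DESeq2, with the replicate block and in 1 fit of all 33 libraries (where *otofb* was lost, adjusted p = 0.0674), and 0 to 2 when single libraries were left out. In *gemin5* mutants (0) it was 1 with no filter and in 1 fit of all libraries, 3 with DESeq2, 4 with the block and 0 to 1 when libraries were left out. In *gemin3* mutants (0) it was 0 to 2 when libraries were left out and 2 with the block without the libraries numbered 3. In *gemin2* mutants (0) it was 2 in 1 fit of all libraries, where 2694 of all 24535 genes were called. The regeneration mean (5) ran from 0 to 6 when libraries were left out, and the difference between the kinds of mutant (0) was 1 with DESeq2, 1 with the block and 0 to 2 when libraries were left out. The median log2 fold change over the genes ran from −0.33 to −0.18 in *smn1*, from −0.12 to −0.051 in *gemin3* and from −0.21 to −0.11 in *gemin5* mutants when libraries were left out. Leaving out the third *gemin3* wild-type library in the mean contrasts, the *smn1* and *gemin5* mean and the block without replicate 3 were chosen after seeing the data. With 3 libraries a group, and 1 to 21 reads of *lhfpl5b* per library in the *smn1* and *gemin5* families, precision was limited.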
